A study of Mus musculus with 12 samples.

Results

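M1 and M2 polarization were compared in macrophages that lack Mirc11, the gene cluster of the microRNAs miR-23a, miR-27a and miR-24-2. Of the 12 RNA sequencing libraries of the series, 6 belong to this comparison: 3 libraries of Mirc11-/- cells held under M1 conditions (titled Ako2271M1, Ako2272M1 and Ako2273M1) and 3 libraries of Mirc11-/- cells held under M2 conditions (Ako2271M2, Ako2272M2 and Ako2273M2). The other 6 are wildtype libraries of both polarizations, titled Wt2260, Wt2261 and Wt2262 with M1 or M2. Members were all genes whose FPKM (fragments mapped to a gene, scaled to transcript length and library size) averaged 1 or more in the 6 Mirc11-/- libraries, which gave 10099 of the 23863 genes in the table.

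Marrow came from C57BL/6 mice aged 6 to 8 weeks, Mirc11-/- (mirn23a-/- in the labels) or wildtype, and was cultured for 7 days with L929-conditioned medium, a source of M-CSF, to give bone marrow derived macrophages. M1 cells then received LPS at 100 ng/ml with IFN-γ for 24 h. M2 cells received IL-4 and IL-13, each at 20 ng/ml, for 24 h. The IFN-γ dose is 50 ng/ml in the protocol field and 10 ng/ml in the treatment field of the labels. No unstimulated macrophages were analysed here, so every change is M1 relative to M2, and a rise under M1 conditions cannot be told apart from a fall under M2 conditions. The labels do not say whether libraries of a group came from separate mice or cultures, so each p-value reflects only how far these libraries spread, which may be technical.

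For 6 of the 12 libraries the title and the treatment field name opposite polarizations, and 2 of these, Ako2273M1 and Ako2273M2, are Mirc11-/-. Groups follow the titles. Nos2 encodes inducible nitric oxide synthase, a mark of M1 cells, and had 1038, 1083 and 938 FPKM in the libraries titled M1 and 1.15, 1.84 and 2.26 FPKM in those titled M2 (in the order Ako2271, Ako2272 and Ako2273, here and for all later triplets). Mrc1, the mannose receptor of M2 cells, had 0.123, 0.195 and 0.301 FPKM in M1 and 262, 229.9 and 301 FPKM in M2. Ako2273M1 and Ako2273M2 thus lay with the other libraries of their titles for both genes. When the groups were taken from the treatment field instead, 0 genes passed the test in Mirc11-/- cells (limma, Benjamini-Hochberg), with 146 at an unadjusted p under 0.05.

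M1 and M2 are names for opposite ends of macrophage activation. LPS is sensed by Toll-like receptor 4, which acts through NF-kB and interferon regulatory factors, while IFN-γ acts through its receptor and JAK kinases. Together they induce inflammatory cytokines, nitric oxide synthesis, antimicrobial GTPases and aerobic glycolysis. IL-4 and IL-13 act through the IL-4 receptor and STAT6 and induce lectin receptors, arginase, chitinase-like proteins, mitochondrial fuel use and lipid uptake. MicroRNAs pair with messenger RNAs mainly through their seed, the bases 2 to 8 from the 5′ end.

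Because the seed decides which messages a microRNA can pair with, it is shown in capitals in the 3p mature strand of each microRNA of the deleted cluster. The 5p strands, which have seeds of their own, are left out. The sequences come from RefSeq, where the cluster lies on the plus strand of chromosome 8 in GRCm38.p6, with miR-23a-3p at chr8:84208563-84208583, miR-27a-3p at chr8:84208727-84208747 and miR-24-3p at chr8:84208875-84208896.
miR-23a-3p: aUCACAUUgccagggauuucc
miR-27a-3p: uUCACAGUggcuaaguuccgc
miR-24-3p: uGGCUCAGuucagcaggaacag
These 3 seeds differ from each other. The genes Mir23a and Mir24-2 were listed at 0 FPKM in all 12 libraries, and Mir27a was above 0 only in the wildtype library Wt2261M1, with 101.5 FPKM, so the values of these genes do not check the genotype.

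Among the 6 Mirc11-/- libraries, 14568 to 14708 genes were above 0 FPKM in M1 and 14377 to 14703 in M2. Read depth is unknown, but the step size of low FPKM values gave relative depths of 1, 0.945 and 0.816 in the M1 libraries and 0.859, 0.628 and 0.711 in the M2 libraries. The 10 most abundant genes took 21.0% to 21.3% of the summed FPKM in M1 and 15.9% to 16.5% in M2. The ferritin gene Fth1 took 4.40% to 4.82% in M2 but is listed at 0 in M1, so these shares cover unlike genes. Pearson's r across genes, on log2(FPKM + 1), was 0.990 to 0.997 within a polarization and 0.822 to 0.848 between polarizations. Summed macrophage markers (Csf1r, Emr1, Cd68, Itgam, Lyz2, Fcgr1 and Mertk) reached 11100 to 11894 FPKM in M1 and 11446 to 13030 FPKM in M2. Markers of B cells, T and NK cells, mast cells, erythroid cells and fibroblasts summed to under 2 FPKM in every library.

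Changes are differences of mean log2(FPKM + 1) with their standard error (SE), tested with limma (two-sided, n = 3 libraries per group, adjusted p from Benjamini-Hochberg over all 10099 genes, threshold 0.05). The added 1 makes the change of genes near 1 FPKM look smaller. Of the 10099 genes, 8092 (80.1%) passed the test. Higher in M1 were 2638 (26.1%) and lower 5454 (54%). The M1 and M2 libraries did not overlap for 8187 genes (81.1%). Changes of at least 1 on the log2 scale (the called ones) were fewer, with 846 genes higher and 1411 lower, and changes of at least 5 were found for 26 genes higher and 16 lower, 14 without Fth1 and Retnla, which are listed at 0 in M1. The median change over all genes was -0.21, and 32.6% of the calls were higher in M1. With the libraries scaled by the median of ratios the median was 0.02 and 51.7% of the calls were higher, and with quantile normalization these were -0.01 and 48.3%, so small changes take their sign from the scaling.

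**Figure D1:**
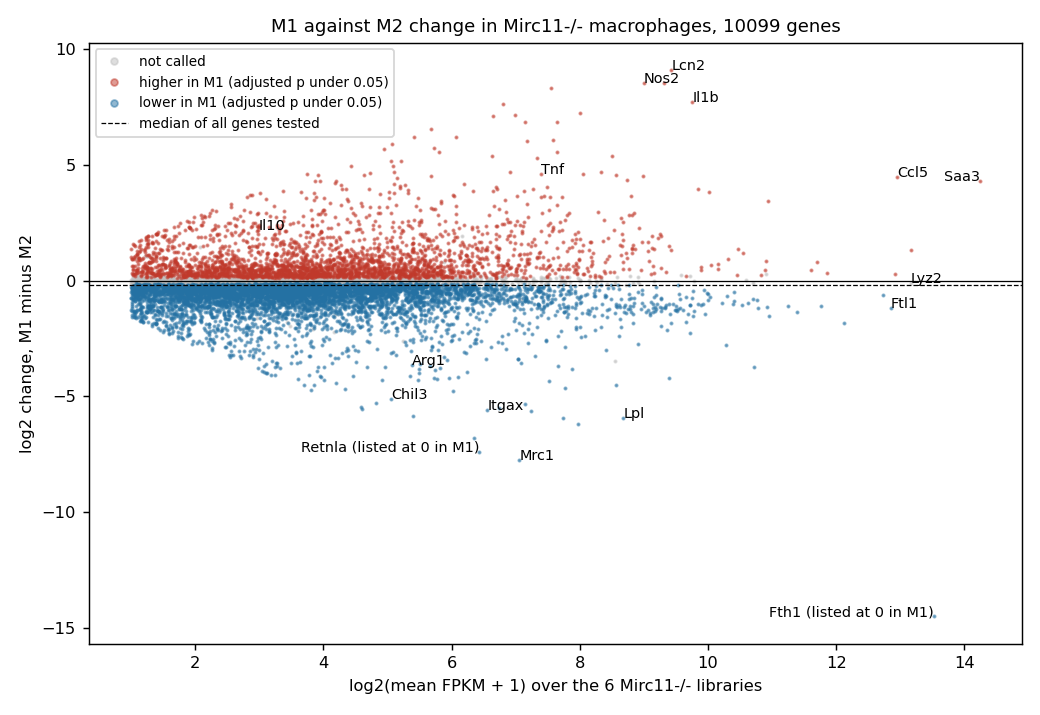
Log2 change, M1 minus M2, in Mirc11-/- macrophages (y axis) against log2 of the mean FPKM + 1 over the 6 libraries (x axis), with 1 point per gene. Most called genes lie within 2 of the line at 0, while Lcn2, Nos2 and Il1b stand at the top and Mrc1 low on the plot. Fth1 and Retnla are listed at 0 in all M1 libraries, and the value drawn for them is no fold change.

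The 10 largest rises, among genes above 0 in all 6 libraries, were led by Lcn2 and Nos2. Lcn2, a siderophore-binding protein that withholds iron from bacteria, had 1374, 1307 and 1444 FPKM in M1 and 1.25, 1.36 and 1.96 FPKM in M2, a change of 9.10 ± 0.14 (adjusted p = 5.9e-14). Nos2 followed with 8.55 ± 0.14 (adjusted p = 6.8e-14). Cxcl10, a chemokine for activated T cells, had 1201, 1320.4 and 1288 FPKM in M1 and 2.44, 2.31 and 2.60 FPKM in M2, and its relative Cxcl9 had 205, 193 and 267 FPKM in M1 and 0.0539, 0.0246 and 0.228 FPKM in M2. In each of these genes the lowest M1 library was above the highest M2 library by more than 100-fold. Il1b and Il1a, which encode the IL-1 ligands, changed by 7.70 ± 0.12 and 7.11 ± 0.12. Ptgs2, the inducible cyclooxygenase, had 602, 513 and 410.1 FPKM in M1 and 2.38, 2.08 and 2.64 FPKM in M2. Upp1, which splits uridine into uracil and ribose phosphate, had 282, 277 and 282 FPKM in M1 and 1.46, 1.31 and 1.52 FPKM in M2, and varied least of the 10, with an SE of 0.05. Gbp4 and Gbp5, interferon-induced GTPases, complete the 10.

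The 10 largest falls, among genes above 0 in all 6 libraries, were led by Mrc1. It fell by 7.78 ± 0.09 on the log2 scale (adjusted p = 4.0e-15). Atp6v0d2, which belongs to the proton pump of lysosomes, had 0.254, 0.355 and 0.788 FPKM in M1 and 146, 145 and 189 FPKM in M2. Clec7a, the β-glucan receptor Dectin-1, had 5.48, 4.98 and 7.60 FPKM in M1 and 409, 419.8 and 429.6 FPKM in M2. Lpl, lipoprotein lipase, had 10.9, 11.1 and 14.8 FPKM in M1 and 761, 772 and 881 FPKM in M2. All M1 libraries were far below all M2 libraries for these genes. Igf1, insulin-like growth factor, had 4.84, 4.52 and 5.34 FPKM in M1 and 294, 297 and 293 FPKM in M2, and fell by 5.65 ± 0.06. Itgax, the integrin CD11c, had 3.23, 2.64 and 2.60 FPKM in M1 and 187, 171 and 193 FPKM in M2. Ptgs1, the constitutive cyclooxygenase, was under 0.1 FPKM in every M1 library and at 50.4, 47.5 and 41.4 FPKM in M2. The transcription factor Egr2 fell by 5.85 ± 0.08, and the calcium-binding S100a4 and the LIM protein Crip1 fell by 6.21 and 5.51.

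**Figure D2:**
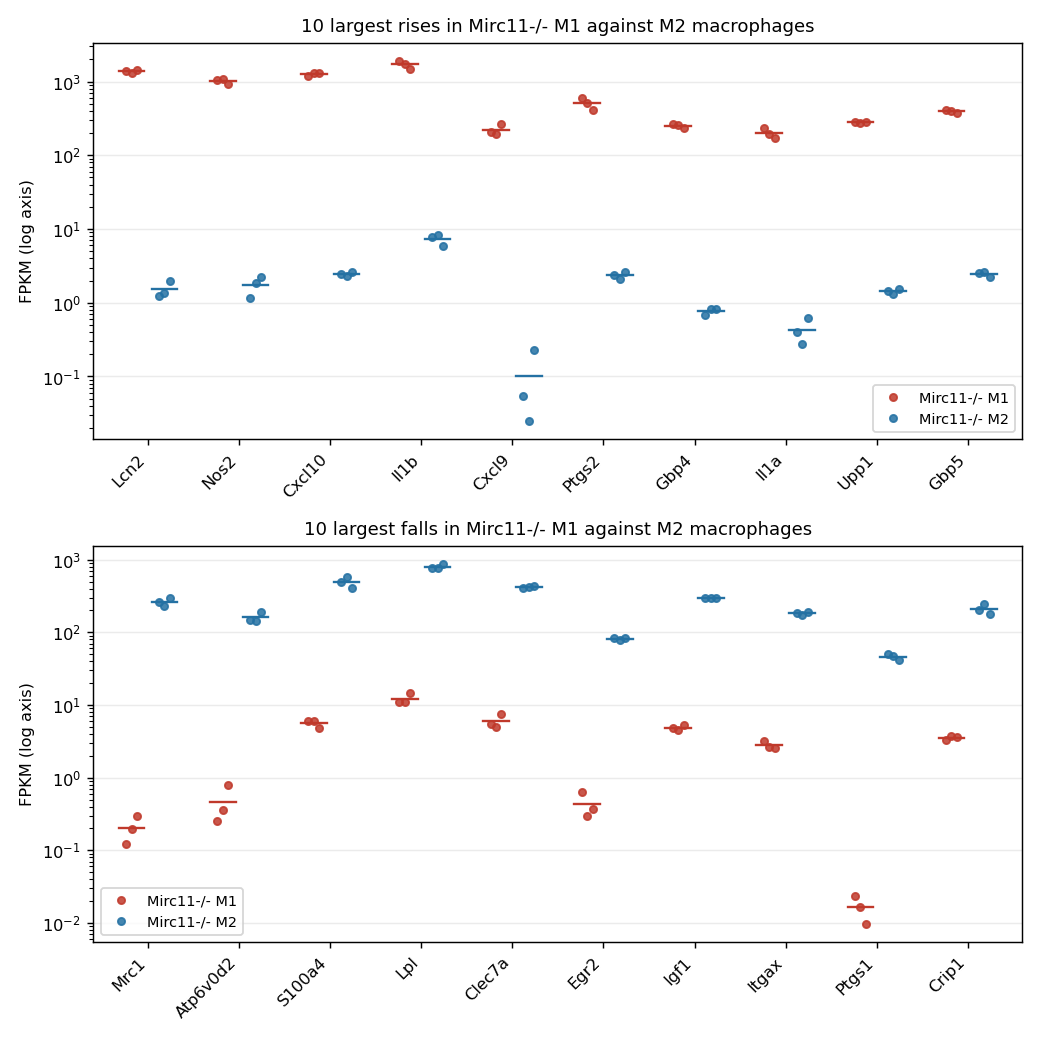
FPKM on a log axis in each Mirc11-/- library for the 10 largest rises (upper panel) and the 10 largest falls (lower panel), with M1 points left of M2 points and a bar at each mean of 3 libraries. The M1 and M2 points of every gene are separated, and points of a polarization spread most for genes under 1 FPKM such as Cxcl9 in M2 and Ptgs1 in M1.

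Abundance was led by different genes in the 2 polarizations. Saa3, an acute-phase serum amyloid A protein, was the most abundant gene in M1, with 35974, 37614 and 37174 FPKM, against 1942, 2252 and 1494 FPKM in M2, and took 7.33% to 7.64% of all FPKM there. Ccl5, a T cell chemokine, was next with 14996, 15586 and 14806 FPKM in M1 and 629, 805 and 608 FPKM in M2. Both changed by over 4 on the log2 scale (4.30 ± 0.16 and 4.48 ± 0.15). Lyz2, the macrophage lysozyme, had 8723, 8434 and 9239 FPKM in M1 and 9757, 10176 and 8685 FPKM in M2, with overlapping libraries and no call (adjusted p = 0.30), although with quantile normalization it was called lower at -0.39. Eef1a1, a translation elongation factor, had 1441, 1352 and 1681 FPKM in M1 and 3737, 3910.5 and 3896 FPKM in M2. Fth1, the ferritin heavy chain, was the most abundant gene in M2. Its listed value was 0 in all 3 M1 libraries, and it had 22925, 25879 and 21717 FPKM in M2, and it was at 0 in the wildtype M1 libraries as well. Since Fth1 is a gene of every cell, its 0 was read as a missing estimate and no fold is given.

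Several other genes were listed at 0 in every M1 library while they averaged at least 10 FPKM in M2. Retnla, the resistin-like protein of IL-4 activated mouse macrophages, had 212, 177 and 123 FPKM in M2. Rnase2a, an eosinophil-associated ribonuclease, had 19.6, 15.9 and 13.0 FPKM in M2. Because a 0 can be a failed estimate here, these are given as listed values. The small RNA genes Mir3101, Mir7091, Snord8 and Snord88c met the same rule with a value above 0 in a single M2 library each and did not pass the test.

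**Figure D3:**
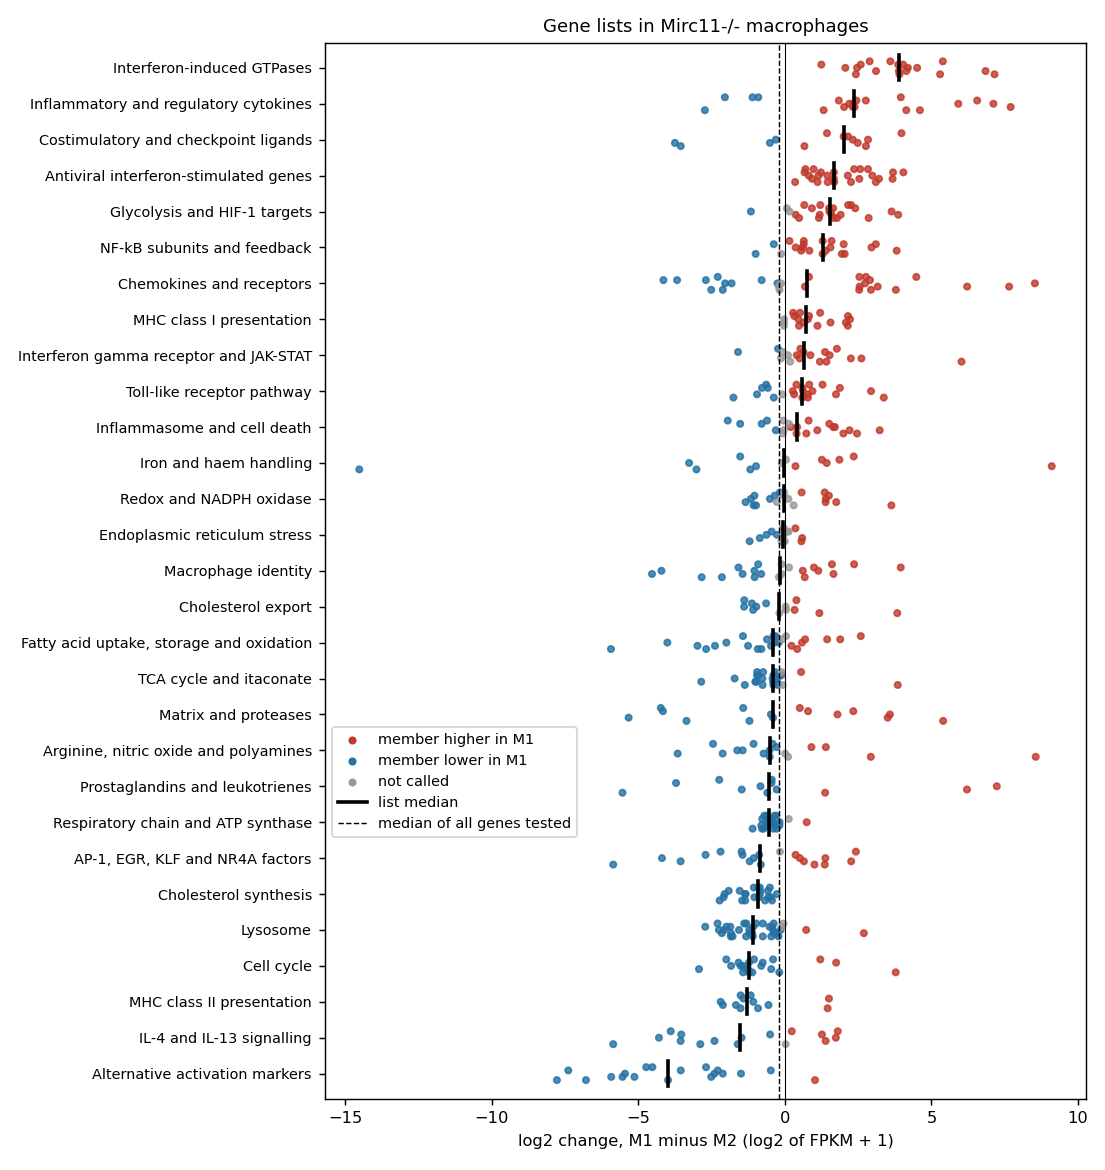
Log2 change, M1 minus M2 (x axis), of each tested member of 29 gene lists (rows, sorted by median), with a black bar at the list median and a dashed line at the median of all genes. Interferon-induced GTPases lie wholly to the right of 0 (median 3.89) and alternative activation markers nearly wholly to the left (median -3.98), and the Fth1 point at the far left is a gene listed at 0 in M1.

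In 29 gene lists, 520 of 570 tested genes passed the test, to be read against the 80.1% of all genes. Counts of members higher or lower are likewise to be read against 26.1% higher and 54% lower among all genes. Counts given with the median of ratios have another background, 4078 genes higher and 3812 lower of the 10099. The lists follow by role.

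Signalling from the IFN-γ receptor differed along its length. Of 19 tested members of the receptor and JAK-STAT list, 13 were higher in M1, 2 lower and 4 not called (median 0.64, against -0.21 over all genes). The ligand-binding chain Ifngr1 was lower, at 23.5, 26.9 and 26.1 FPKM in M1 and 79.4, 79.9 and 78.3 FPKM in M2, a fall by 1.60 ± 0.07 (adjusted p = 2.8e-10). The second chain, Ifngr2, was not called (-0.14 ± 0.06), and neither was the kinase Jak1 (-0.07 ± 0.06). The partner kinase Jak2 had 104, 101 and 88.6 FPKM in M1 and 44.2, 39.2 and 43.3 FPKM in M2. The transcription factor Irf1, induced by IFN-γ, rose by 2.61 ± 0.08 and the macrophage factor Irf8 by 1.53 ± 0.06. Socs1, an inhibitor of JAK kinases, had 345, 371 and 378 FPKM in M1 and 109, 119 and 91.5 FPKM in M2, and the inhibitor Socs3 had 284, 296 and 270.0 FPKM in M1 and 3.67, 3.53 and 2.93 FPKM in M2. M1 cells thus held less message for 1 receptor chain and more for both inhibitors. Irf5 was called lower at -0.23 ± 0.07, but with the median of ratios it stood at 0.04 and was not called.

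The targets of this pathway rose together. All 19 tested interferon-induced GTPases were higher in M1, with a median change of 3.89 and a lowest change of 1.24 ± 0.33 for Gvin1 (adjusted p = 0.0042). These proteins coat and break the vacuoles of intracellular bacteria and parasites in mice. Gbp2 had the highest level, with 949, 990.3 and 972 FPKM in M1 and 44.5, 44.2 and 36.6 FPKM in M2. Gbp4 had 267, 255 and 231 FPKM in M1 and 0.682, 0.816 and 0.817 FPKM in M2, and Gbp5 had 412, 397 and 376 FPKM in M1 and 2.51, 2.61 and 2.23 FPKM in M2. The immunity-related GTPase Iigp1 had 301, 312 and 326 FPKM in M1 and 6.84, 8.85 and 5.62 FPKM in M2, while Irgm1, a regulator of the same family, had 216, 217 and 226 FPKM in M1 and already 51.2, 54.2 and 50.1 FPKM in M2. Together the 20 listed genes, with the 1 under the filter, took 0.736% to 0.792% of the summed FPKM of a library in M1 and 0.0463% to 0.0507% in M2. The levels in M2 thus ranged from under 1 to over 50 FPKM, and the changes from 1.24 to 7.15. Members of the GBP and IRG families share sequence, so levels of single paralogs are uncertain where reads could be split between them. Tgtp1, the neighbour of Tgtp2, was the 1 listed member under the filter.

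All 26 antiviral interferon-stimulated genes were higher in M1 (median 1.68). Rsad2, the antiviral enzyme viperin, had 309, 371 and 333 FPKM in M1 and 19.0, 22.6 and 17.2 FPKM in M2. Isg15, a ubiquitin-like modifier, had 736, 828 and 787 FPKM in M1 and 108, 134 and 89.7 FPKM in M2. The smallest changes were in Oas2 (0.35 ± 0.13, adjusted p = 0.026), Oas1a (0.67 ± 0.15) and Bst2 (0.70 ± 0.17), which were also well expressed in M2. Bst2, which tethers virus particles to the membrane, stood at 1329.5, 1430.3 and 1483 FPKM in M1 against 829, 992 and 796 FPKM in M2.

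**Figure D4:**
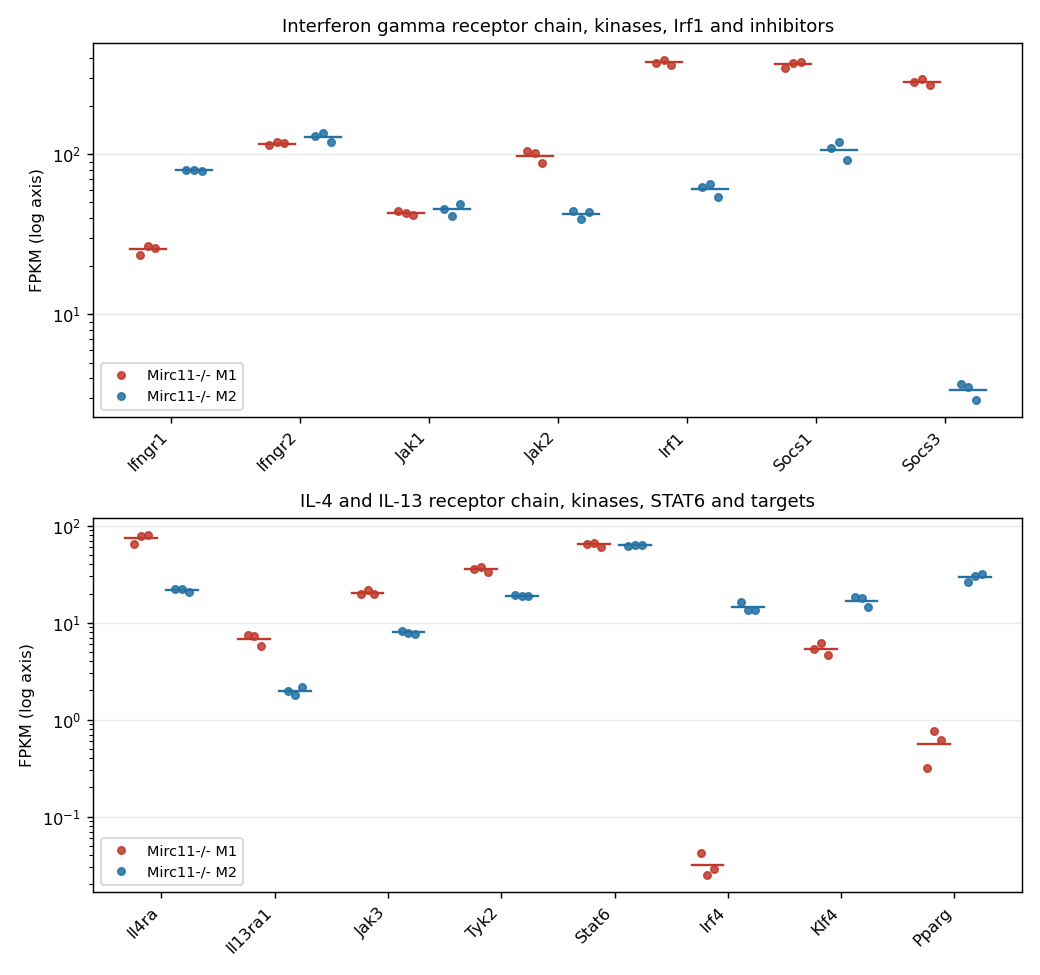
FPKM on a log axis in each Mirc11-/- library for members of the IFN-γ pathway (upper panel) and of the IL-4 and IL-13 pathway (lower panel), with M1 points left of M2 points and a bar at each mean of 3 libraries. Ifngr1 is lower and Irf1, Socs1 and Socs3 are higher in M1, while Il4ra is higher in M1, the libraries of Stat6 overlap, and Irf4 and Pparg are lower in M1.

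Promoter sequences were looked at because these genes moved together. RefSeq windows of 300 bases, from 250 before to 50 after a gene's start (GRCm38.p6), were found by symbol for 8148 of the 10099 genes. The measured table uses mm9, so no position is given for its genes from that build. The motifs searched on either strand were GAAA, 2 bases of any kind and GAAA (core of the interferon-stimulated response element), TTC, 4 bases and GAA (STAT6-type), and GGGA, 1 base and TTTCC (a form of the kappa B site). Of all 32851 windows, counted singly, 3.44% held the first, 6.95% the STAT6-type and 0.411% the kappa B form. A gene was counted if any of its windows held the motif. Of the 8148 tested genes with a window, 4.14%, 6.55% and 0.552% did so. Of the 17 genes with a window among the 19 of the IFN-γ receptor and JAK-STAT list, 3 (17.6%) held the interferon-stimulated core, 3 (17.6%) the STAT6-type and 1 (5.88%) the kappa B form. Of the 16 with a window among 18 genes of MHC class I presentation, 4 (25%) held the interferon-stimulated core, 1 (6.25%) the STAT6-type and 1 (6.25%) the kappa B form. Of the 40 with a window among the 50 largest falls, 4 (10%) held the STAT6-type, 1 (2.5%) the interferon-stimulated core and 0 the kappa B form. Of the 24 genes of glycolysis, all with a window, 4 (16.7%) held the STAT6-type and 1 (4.17%) the interferon-stimulated core. Fewer than 80% of genes had a window in the groups that follow, so their shares are less complete. Of the 50 largest rises, 9 of 36 with a window (25%) held the interferon-stimulated core and 4 (11.1%) the STAT6-type. Of the GTPases, 8 of 9 (88.9%) held the core and 1 (11.1%) the STAT6-type. Of the antiviral genes these were 12 of 20 (60%) and 4 (20%). Of the alternative activation markers they were 1 of 15 (6.67%) and 4 (26.7%). The STAT6-type was also held by 4 of 14 cytokines (28.6%), 3 of 10 iron genes (30%) and 2 of 8 costimulatory and checkpoint ligands (25%). In IL-4 and IL-13 signalling 0 of 11 held it. The kappa B form was held by 3 of 16 genes of the NF-kB list (18.75%), 3 of 19 chemokines and receptors (15.8%) and 2 of 14 cytokines (14.3%). Shares of the remaining lists are not reported here. No share was tested.

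Windows of 5 genes are shown with every match of these 3 motifs in capitals: Gbp5, Cxcl10 and Igtp as genes far higher in M1, and Clec7a and Itgax as genes far lower. They were picked because they hold a match. Among genes above 0 in all 6 libraries, 45 of 254 rises of 2 or more with a window (17.7%) held the interferon-stimulated core. Among falls of 2 or more it was 15 of 276 (5.43%). The STAT6-type was held by 22 of these rises (8.66%) and 27 of these falls (9.78%). Windows were found for 77.4% of these rises and 79.8% of these falls, and no test was run. Single genes of both directions held or lacked a match. Il1b, Cxcl9, Ptgs2 and Il1a, which rose, and Mrc1, Egr2 and Igf1, which fell, held none, Lcn2 and Ptges, which rose, held a STAT6-type match, and Spp1, which fell, held an interferon-stimulated core. Gbp5 (plus strand, chr3:142496684-142496983) holds 2 matches, which begin 165 (interferon-stimulated core) and 77 bases (kappa B form) before the start. In Igtp (plus strand, chr11:58199306-58199605) an interferon-stimulated core begins 34 bases before the start. Cxcl10 (minus strand, chr5:92348840-92349139) has 1 interferon-stimulated core, 213 bases before the start. Clec7a (minus strand, chr6:129472730-129473029) and Itgax (plus strand, chr7:128129300-128129599) each hold 1 STAT6-type match, 131 and 127 bases before the start. No matches overlap in these windows, and a match is a run of letters and not a measured binding site.
Gbp5: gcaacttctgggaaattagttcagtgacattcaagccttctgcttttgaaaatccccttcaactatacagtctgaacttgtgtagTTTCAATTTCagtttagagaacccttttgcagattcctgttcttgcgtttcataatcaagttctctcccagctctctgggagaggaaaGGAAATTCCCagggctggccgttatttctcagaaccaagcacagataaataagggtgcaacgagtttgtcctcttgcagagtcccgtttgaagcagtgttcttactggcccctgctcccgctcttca
Igtp: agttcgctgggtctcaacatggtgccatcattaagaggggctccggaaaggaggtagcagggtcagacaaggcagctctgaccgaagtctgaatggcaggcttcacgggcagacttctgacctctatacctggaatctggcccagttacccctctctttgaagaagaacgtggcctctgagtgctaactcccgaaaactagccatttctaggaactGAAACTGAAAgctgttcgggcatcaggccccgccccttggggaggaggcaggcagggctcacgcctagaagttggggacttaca
Cxcl10: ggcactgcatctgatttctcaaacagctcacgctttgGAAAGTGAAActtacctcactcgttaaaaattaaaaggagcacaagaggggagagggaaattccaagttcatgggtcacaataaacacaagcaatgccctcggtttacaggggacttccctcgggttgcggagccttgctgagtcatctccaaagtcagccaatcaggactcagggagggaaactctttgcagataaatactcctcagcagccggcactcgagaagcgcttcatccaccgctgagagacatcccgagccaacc
Clec7a: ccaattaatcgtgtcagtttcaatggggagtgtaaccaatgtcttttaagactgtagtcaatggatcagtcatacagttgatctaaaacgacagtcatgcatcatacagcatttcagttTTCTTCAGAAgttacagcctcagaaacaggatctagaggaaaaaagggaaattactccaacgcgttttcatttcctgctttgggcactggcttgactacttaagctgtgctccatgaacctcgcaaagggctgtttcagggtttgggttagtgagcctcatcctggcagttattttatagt
Itgax: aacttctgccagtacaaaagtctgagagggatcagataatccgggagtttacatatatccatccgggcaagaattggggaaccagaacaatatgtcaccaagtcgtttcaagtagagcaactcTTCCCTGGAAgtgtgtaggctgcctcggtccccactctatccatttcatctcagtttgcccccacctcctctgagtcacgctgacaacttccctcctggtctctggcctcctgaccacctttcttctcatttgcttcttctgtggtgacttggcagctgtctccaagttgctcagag

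In the Toll-like receptor pathway, which senses LPS, 15 of 22 members were higher in M1 and 6 lower (median 0.60). Tlr4 itself was lower, at 11.6, 12.6 and 12.2 FPKM in M1 and 23.9, 23.2 and 25.9 FPKM in M2. Cd14, which hands LPS to TLR4, was higher at 843, 753 and 849 FPKM in M1 and 107, 115 and 95.1 FPKM in M2. The adaptor Myd88 rose by 1.28 ± 0.08. The kinases below it moved apart: Irak1 and Irak4 fell by 0.64 ± 0.05 and 0.78 ± 0.06, while Irak2 rose by 1.74 ± 0.06 and the inhibitory Irak3 by 3.37 ± 0.05. Irak3 had 108, 102 and 98.6 FPKM in M1 and 9.33, 9.13 and 8.58 FPKM in M2. Tlr8 and Tlr7, relatives that sense RNA, fell by 1.76 ± 0.11 and 0.58 ± 0.14, and Tlr7 missed the threshold with the median of ratios (adjusted p = 0.052). Tlr9, which senses DNA, rose by 0.79 ± 0.20.

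Of 21 members of the NF-kB list, 18 were higher in M1 and 2 lower (median 1.29). The subunits changed less than Nfkbia, Nfkbiz and Tnfaip3: Rela rose by 0.37 ± 0.05, Nfkb1 by 0.60 ± 0.06 and Nfkb2 by 1.29 ± 0.05, and Rel was not called (-0.12 ± 0.13). Nfkbia, which encodes the inhibitor IkBα, had 573, 551 and 532 FPKM in M1 and 76.1, 75.8 and 60.5 FPKM in M2, and Nfkbiz, an inducible IkB protein, rose by 3.81 ± 0.10. Tnfaip3, the ubiquitin-editing inhibitor A20, had 84.3, 74.3 and 61.8 FPKM in M1 and 18.9, 15.8 and 17.7 FPKM in M2. The 2 members called lower encode the ubiquitin ligases Cblb, at 12.8, 13.0 and 10.7 FPKM in M1 and 23.2, 22.7 and 30.6 FPKM in M2, and Itch, which fell by 0.38 ± 0.06 and lost its call with the median of ratios (adjusted p = 0.079).

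Cytokine ligands were among the strongest changes. Of 20 tested cytokines, 16 were higher in M1 and 4 lower (median 2.35), and Il23a, Csf2, Lif and Ifnb1 were under the filter. Tnf had 349, 313 and 301 FPKM in M1 and 11.7 to 13.0 FPKM in M2, with a change of 4.61 ± 0.07 (adjusted p = 2.9e-14). Il6 had 116, 90.7 and 95.2 FPKM in M1 and was under 0.1 FPKM in each M2 library. Il12b, the p40 chain of IL-12, had 86.9, 60.8 and 47.2 FPKM in M1, the widest spread of these genes, and 0.0415, 0.0758 and 0.0670 FPKM in M2. Il1rn, the IL-1 receptor antagonist, had 254, 289 and 319.9 FPKM in M1 and 16.2, 18.4 and 18.2 FPKM in M2. Agonists and antagonist of the IL-1 receptor were thus both higher. Il10, an anti-inflammatory cytokine, had 10.6, 13.0 and 12.3 FPKM in M1 and 1.83, 2.15 and 1.51 FPKM in M2. The 4 lower members were Tnfsf13 (the B cell factor APRIL, -2.73), Csf1 (the macrophage growth factor, -2.05), Tgfb1 (-1.10) and Osm (-0.91).

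Chemokines and their receptors split. Of 28 members, 15 were higher in M1, 10 lower and 3 not called (median 0.75). Among the higher were Cxcl11, with 76.1, 95.6 and 76.4 FPKM in M1 and 0.155, 0.120 and 0.0845 FPKM in M2, and the monocyte and neutrophil attractants Ccl2, Ccl3, Ccl4, Cxcl1, Cxcl2 and Cxcl3, which rose by 2.53 to 3.17. The receptor Ccr7, which guides cells to lymph nodes, had 15.7, 16.1 and 15.0 FPKM in M1 and 1.26 to 1.98 FPKM in M2. Lower in M1 were Ccl6 (3.05, 2.80 and 4.34 FPKM in M1 and 68.0, 83.4 and 77.0 FPKM in M2), Pf4 (-3.68), Ccl9 (-2.69) and the IL-4 induced Ccl22 (-2.51), as well as the receptors Cxcr4 (-2.04) and Ccr2 (-1.82). All 30 listed genes, with those under the filter, took 3.57% to 3.84% of the summed FPKM in M1 and 0.319% to 0.349% in M2. Ccl24, an eosinophil attractant, was 0 in each M1 library and had 4.01, 4.46 and 1.99 FPKM in M2.

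IL-4 and IL-13 signalling showed the reverse arrangement, with receptor and targets in opposite directions. Of 16 members, 5 were higher in M1, 10 lower and 1 not called (median -1.54). The receptor chains were higher in M1: Il4ra had 65.2, 79.1 and 79.8 FPKM in M1 and 22.2, 22.0 and 20.6 FPKM in M2, and Il13ra1 had 7.40, 7.24 and 5.79 FPKM in M1 and 1.96, 1.80 and 2.16 FPKM in M2. The kinase Jak3 rose by 1.26 ± 0.06. Stat6, the transcription factor of the pathway, had 65.3, 66.6 and 60.9 FPKM in M1 and 62.6, 62.9 and 63.5 FPKM in M2 and was not called (adjusted p = 0.64), although with the median of ratios it was called higher at 0.29. The STAT6 targets were lower: Irf4 was under 0.05 FPKM in each M1 library and at 16.2, 13.6 and 13.5 FPKM in M2, and Pparg, a nuclear receptor for lipids, had 0.314, 0.770 and 0.615 FPKM in M1 and 26.5, 30.2 and 32.1 FPKM in M2. Myc fell by 3.56 ± 0.07, Klf4 by 1.48 ± 0.14 and the feedback inhibitor Cish by 2.89 ± 0.07. Kdm6b, the histone demethylase JMJD3, which IL-4 and LPS both induce in mouse macrophages, rose by 1.80 ± 0.10.

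Of 19 tested alternative activation markers, 18 were lower in M1 and 1 higher (median -3.98), a list made of genes known to be induced by IL-4. Retnla and Ccl24 among the 18 were listed at 0 in M1. Chil3, a chitinase-like protein, had 0.821, 0.760 and 0.928 FPKM in M1 and 71.4, 61.8 and 57.5 FPKM in M2, and Mgl2 and Clec10a, a pair of galactose-type lectins, were under 0.2 FPKM in each M1 library. In M2, Mgl2 had 29.0, 24.6 and 24.0 FPKM and Clec10a 23.9, 26.7 and 20.7 FPKM. Pdcd1lg2, the checkpoint ligand PD-L2, had 0.566, 0.502 and 0.478 FPKM in M1 and 17.8, 16.9 and 15.7 FPKM in M2. The exception was Tgm2, transglutaminase, with 215, 235 and 212 FPKM in M1 and 108, 106 and 109 FPKM in M2. Chil3 and Chil4, like Clec10a and Mgl2, are paralogs whose reads could be shared. The listed Fn1, Cd163, Alox15, Cdh1, Cd209d, Cd209e, Ear11 and Il31ra were not tested. Of the 27 listed genes 26 were found by symbol, and 7 of these were under the filter.

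Genes of arginine use differed between the 2 states. Nos2 turns arginine into nitric oxide and Arg1 into ornithine. Arg1 had 5.03, 5.48 and 4.84 FPKM in M1 and 79.2, 83.9 and 66.2 FPKM in M2, a fall by 3.66 ± 0.17 (adjusted p = 6.4e-10), against the rise of Nos2 by 8.55. Slc7a2, the arginine transporter, had 364, 292 and 242 FPKM in M1 and 42.7, 34.7 and 36.5 FPKM in M2. Gch1, which makes the nitric oxide synthase cofactor tetrahydrobiopterin, rose by 1.40 ± 0.05, while Spr and Qdpr, which finish and recycle the cofactor, fell by 1.07 ± 0.08 and 2.12 ± 0.07. Ass1, which rebuilds arginine from citrulline, rose by 0.91 ± 0.07. Polyamine genes were lower in M1: Odc1 by 0.52, Srm by 1.62, Sms by 1.44 and Sat1 by 2.45. In the whole list 4 of 17 were higher and 11 lower (median -0.52), and Arg2 was not called.

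Glycolysis genes were higher in M1 in 21 of 24 cases (median 1.53). Slc2a1, the glucose transporter GLUT1, had 225, 226 and 189.8 FPKM in M1 and 40.4, 39.6 and 38.6 FPKM in M2. Pfkfb3, which makes the activator of phosphofructokinase, had 159, 160.1 and 132 FPKM in M1 and 9.44, 8.51 and 10.2 FPKM in M2, and Pfkl, a phosphofructokinase, rose by 2.86 ± 0.06. Ldha, lactate dehydrogenase, had 1009, 1017 and 947 FPKM in M1 and 334, 373 and 339 FPKM in M2, and the lactate exporter Slc16a3 rose by 3.64 ± 0.09. Hif1a, the hypoxia factor that controls many of these genes, rose by 1.90 ± 0.07. The 24 genes took 1.96% to 2.12% of the summed FPKM in M1 and 0.746% to 0.755% in M2. The single member called lower was Pfkfb4, at 6.73, 7.28 and 7.17 FPKM in M1 and 17.5, 18.2 and 15.4 FPKM in M2.

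Mitochondrial genes were lower with small changes. Of 26 genes of the TCA cycle and itaconate, 22 were lower in M1 and 2 higher (median -0.40), and with the median of ratios 15 were lower and 4 higher. Of 24 genes of the respiratory chain and ATP synthase, 22 were lower and 1, Cycs, higher (median -0.53), and with the median of ratios 13 were lower and 2 higher. Irg1, the enzyme that turns aconitate into the antibacterial itaconate, went against the rest, with 1955, 2014 and 1846 FPKM in M1 and 147, 141 and 115 FPKM in M2. Idh1 and Idh2, isocitrate dehydrogenases, fell by 2.85 ± 0.08 and 1.71 ± 0.06. Idh1 had 10.6 to 13.4 FPKM in M1 and 93.7, 89.2 and 87.9 FPKM in M2. The succinate dehydrogenase subunits fell by 0.25 (Sdhd) to 0.91 (Sdha), and the smallest of these is close to the 0.23 by which the median of ratios shifts all genes.

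Lipid genes differed by list. In fatty acid uptake, storage and oxidation, 16 of 25 (64%) were lower, against 54% of all genes, and 7 higher (median -0.39; 13 lower and 9 higher with the median of ratios). Cd36, a fatty acid and oxidized lipoprotein receptor, had 29.1, 26.7 and 30.3 FPKM in M1 and 178, 181 and 212 FPKM in M2, and Fabp4, a fatty acid carrier, had 3.62, 4.42 and 4.68 FPKM in M1 and 74.2, 84.5 and 91.1 FPKM in M2. Lipa, the lysosomal lipase, fell by 2.98 ± 0.07. Higher in M1 were Acsl1 (1.89 ± 0.10), which activates fatty acids, and Hilpda (2.59 ± 0.16), an inhibitor of fat breakdown. In cholesterol synthesis all 23 tested genes were lower (median -0.91), and 20 with the median of ratios. Among the largest falls there were Dhcr7 (1.57, 1.93 and 2.08 FPKM in M1 and 11.9, 12.9 and 12.3 FPKM in M2) and Cyp51 (-2.09), both late steps. In cholesterol export and storage 4 of 13 were higher and 6 lower, a share of 46.2%, which is under the 54% of all genes (median -0.19, and 0.08 with the median of ratios). Ch25h, which makes 25-hydroxycholesterol, rose by 3.83 ± 0.19, and the cholesterol transporter Abcg1 fell by 0.97 ± 0.16 while its relative Abca1 rose by 0.39 ± 0.09.

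Lysosomal genes were lower in 31 of 35 cases (median -1.09; 25 with the median of ratios). Psap, the sphingolipid activator, had 1823, 1869 and 2189 FPKM in M1 and 7039.8, 7027 and 6927 FPKM in M2, and Cd63 had 254, 273 and 352 FPKM in M1 and 1319, 1472 and 1365 FPKM in M2. Tfeb, a transcription factor for lysosomal genes, fell by 1.79 ± 0.08. The proteases were not uniform: Ctsb and Ctsd fell by 1.20 ± 0.08 and 1.11 ± 0.12, Ctsk by 2.72 ± 0.17, while Ctsc, which activates granule serine proteases, had 647, 697 and 729 FPKM in M1 and 108, 109.7 and 100.0 FPKM in M2. Ctsh was the other member called higher (0.73 ± 0.08). The whole list took 2.56% to 2.87% of the summed FPKM in M1 and 5.48% to 5.68% in M2.

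Antigen presentation differed by class. Of 18 genes of MHC class I presentation, 15 were higher in M1 and 3 not called (median 0.71). The peptide transporters Tap1 and Tap2 rose by 2.15 ± 0.15 and 2.15 ± 0.09, their regulator Nlrc5 by 2.22 ± 0.12 and the immunoproteasome subunits Psmb8 and Psmb9 by 1.11 ± 0.11 and 1.20 ± 0.11. The class I chain H2-K1 had 3448, 3707 and 3651 FPKM in M1 and 2533, 3009.6 and 2352 FPKM in M2. B2m, the light chain, was called at 0.28 ± 0.11 (adjusted p = 0.034), a call that was lost without Ako2272M1 (adjusted p = 0.080) or Ako2273M1 (0.091), and without Ako2271M2 (0.11) or Ako2273M2 (0.10). H2 class I genes resemble each other, so their single levels are uncertain.

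Of 12 genes of MHC class II presentation, 10 were lower in M1 and 2 higher (median -1.29). Ciita, the class II transactivator, had 2.06, 2.61 and 3.33 FPKM in M1 and 8.29, 9.39 and 8.44 FPKM in M2. H2-Eb1 had 65.2, 67.9 and 88.8 FPKM in M1 and 345, 381 and 292 FPKM in M2, and the invariant chain Cd74 had 942, 975 and 1171 FPKM in M1 and 2964, 3202 and 2621 FPKM in M2. Ako2273M1 was the highest of the 3 M1 libraries for each of these genes and still below all M2 libraries. The 2 higher genes were March1, the ubiquitin ligase that removes class II from the surface (1.46 ± 0.06), and H2-Oa, part of an inhibitor of peptide loading (7.18, 7.42 and 7.80 FPKM in M1 and 1.90, 2.33 and 1.75 FPKM in M2).

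Of 13 costimulatory and checkpoint ligands, 9 were higher in M1 and 4 lower (median 2.00). Cd40 had 209, 197 and 178 FPKM in M1 and 12.7, 12.5 and 9.27 FPKM in M2, and Cd86 had 40.3, 41.2 and 41.2 FPKM in M1 and 15.5, 14.8 and 13.3 FPKM in M2. The ligands of the receptor PD-1 moved in opposite directions: Cd274 (PD-L1) had 416, 402 and 355 FPKM in M1 and 57.9, 48.4 and 55.6 FPKM in M2, while Pdcd1lg2 (PD-L2) fell by 3.55 ± 0.07. Cd200r1, an inhibitory receptor, had 2.29, 3.33 and 4.62 FPKM in M1 and 55.1, 54.1 and 62.0 FPKM in M2.

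The cyclooxygenases moved in opposite directions. In the list of prostaglandins and leukotrienes, 3 of 12 were higher in M1 and 9 lower (median -0.53). Pla2g4a, which releases arachidonic acid, rose by 1.37 ± 0.08. Ptgs2 and Ptges, the inducible route to prostaglandin E2, were higher, Ptges with 136, 129 and 129 FPKM in M1 and 0.874, 0.801 and 0.673 FPKM in M2. Ptgs1 was lower, and so were Tbxas1, the thromboxane synthase (22.0, 24.1 and 26.0 FPKM in M1 and 120.3, 118 and 112 FPKM in M2), and Ltc4s, the leukotriene C4 synthase (-3.71). The sum of the cyclooxygenase messages was not tested.

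Iron genes moved both ways. Of 14 tested, 6 were higher and 6 lower in M1, 5 of these without Fth1 (median -0.03, and 0.22 with the median of ratios). The light chain Ftl1 had 4061, 4484 and 5036 FPKM in M1 and 9829, 11196 and 9678 FPKM in M2, and fell by 1.18 ± 0.11. Tfrc, the transferrin receptor for iron uptake, had 11.1, 9.67 and 9.71 FPKM in M1 and 91.5, 77.5 and 100.2 FPKM in M2. Slc40a1, the iron exporter ferroportin, fell by 1.52 ± 0.12. Hmox1, which breaks down haem, had 724, 797 and 927 FPKM in M1 and 318, 306 and 281 FPKM in M2, and Slc11a1, the phagosomal metal transporter NRAMP1, had 513, 546 and 576 FPKM in M1 and 147, 162 and 139 FPKM in M2.

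In the redox list 7 of 20 were higher and 8 lower (median -0.03, and 0.23 with the median of ratios; 10 higher and 6 lower with that scaling). Sod2, the mitochondrial superoxide dismutase, had 384 to 394 FPKM in M1 and 33.1, 31.1 and 27.6 FPKM in M2. Of the NADPH oxidase subunits, Cybb and Ncf1 rose by 1.36 ± 0.08 and 1.39 ± 0.08 and Cyba fell by 0.51 ± 0.10. Nfe2l2, the factor NRF2, fell by 0.98 ± 0.06, and its targets were split, with Gclc and Nqo1 lower (-1.04 and -1.07), Slc7a11 higher (1.39) and Srxn1 not called.

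Cell cycle genes were lower in 18 of 21 cases (median -1.22). Ccnd1, cyclin D1, had 2.98, 4.36 and 4.08 FPKM in M1 and 34.4, 33.6 and 38.0 FPKM in M2, while its relative Ccnd2 had 27.9, 27.8 and 22.5 FPKM in M1 and 0.795, 0.915 and 1.19 FPKM in M2. Mcm2, a part of the replicative helicase, fell by 2.00 ± 0.10. Cdkn1a, the kinase inhibitor p21, had 385, 424 and 426 FPKM in M1 and 187, 186 and 160.0 FPKM in M2. Mki67, a marker of dividing cells, Ccna2, Ccnb1 and 6 other listed genes were under the filter.

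Among AP-1, EGR, KLF and NR4A factors 8 of 20 were higher and 11 lower (median -0.85). The lower share of 55% is near the 54% of all genes, and the higher share was 40% against 26.1%. Cebpa, a myeloid differentiation factor, had 4.53, 5.31 and 6.68 FPKM in M1 and 114, 128 and 109.8 FPKM in M2, while its relative Cebpb rose by 1.01 ± 0.12. Batf rose by 2.42 ± 0.09, whereas Jun, Jund and Fos fell by 1.06 ± 0.06, 0.87 ± 0.08 and 1.45 ± 0.10. Klf2 and Klf9 fell by 2.20 ± 0.17 and 2.71 ± 0.10, and Klf6 rose by 1.36 ± 0.05.

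Genes of macrophage identity also split, with 8 of 22 higher and 10 lower in M1 (median -0.16, and 0.05 with the median of ratios). Trem2, a lipid receptor, had 28.6, 28.5 and 34.5 FPKM in M1 and 713, 785 and 684 FPKM in M2. Marco, a scavenger receptor, had 1867, 1616 and 1682 FPKM in M1 and 132, 121 and 83.5 FPKM in M2. The receptors for dying cells differed, with Mertk higher (1.61 ± 0.08) and Axl lower (-1.58 ± 0.11), as was their ligand Gas6 (-4.21 ± 0.12). Spi1, the lineage factor PU.1, was not called (0.14 ± 0.08).

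The inflammasome and cell death list had 13 of 22 genes higher and 5 lower (median 0.41). Nlrp3, an inflammasome sensor, had 88.8, 74.4 and 70.5 FPKM in M1 and 8.49, 6.59 and 7.09 FPKM in M2. Casp1 and Casp4, the proteases of canonical and non-canonical inflammasomes, rose by 1.51 ± 0.06 and 2.21 ± 0.10, and the adaptor Pycard fell by 0.61 ± 0.10. Cflar, an inhibitor of caspase-8, rose by 2.46 ± 0.07. Bcl2l11, the killer BIM, and its opponent Bcl2 fell by 1.95 ± 0.08 and 1.53 ± 0.08.

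Matrix genes and proteases moved both ways, with 7 of 15 higher and 8 lower. The lower share of 53.3% is near the 54% of all genes, and the higher share was 46.7% against 26.1%. Mmp13, a collagenase, had 751, 701 and 668 FPKM in M1 and 13.5, 15.4 and 18.8 FPKM in M2. Mmp12, the macrophage elastase, had 6.20, 5.62 and 5.52 FPKM in M1 and 244, 244 and 335 FPKM in M2. Spp1, osteopontin, had 60.9, 58.4 and 82.7 FPKM in M1 and 1101, 1229 and 1503 FPKM in M2. Plau, the plasminogen activator urokinase, fell by 3.36 ± 0.13.

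Of 16 genes of endoplasmic reticulum stress, 3 were higher, 5 lower and 8 not called (median -0.06, and 0.21 with the median of ratios). The chaperone Hspa5 had 306, 293 and 306 FPKM in M1 and 315, 302 and 310.3 FPKM in M2. With the median of ratios 9 were called higher and 4 lower, so this list has no direction that holds across scalings.

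Some markers of other cell types moved with the polarization. Of 10 neutrophil markers, 7 were under 1 FPKM in all 6 libraries. Their sum was 35.6 to 38.9 FPKM in M1 and 5.93 to 8.85 FPKM in M2, led in M1 by S100a8 at 27.3 to 30.6 FPKM, against 1.32 to 1.63 FPKM in M2. S100a9, its usual partner, was under 1 FPKM in all 6 libraries. Dendritic cell markers summed to 18.5 to 20.4 FPKM in M1 and 174 to 195 FPKM in M2, led by Ccr7 in M1 and Itgax in M2. The higher sum in M2 lay in Itgax, at 2.60 to 3.23 FPKM in M1 and 171 to 193 FPKM in M2. Ccr7 (15.0 to 16.1 FPKM in M1 and 1.26 to 1.98 FPKM in M2) and Xcr1 (0.862 to 1.26 FPKM in M1 and under 0.1 FPKM in M2) went the other way. Zbtb46 was lower in M1, and 3 of these markers were under 1 FPKM in all 6 libraries. Endothelial markers summed to 13.1 to 15.3 FPKM in M1 and 7.25 to 9.10 FPKM in M2. Pecam1, the largest of them, overlapped between the polarizations, and the difference lay in Kdr, a receptor for vascular growth factor, at 5.38 to 7.10 FPKM in M1 and 0.858 to 1.23 FPKM in M2. The part of other cells in the results was not tested, and in such bulk samples a different share of cells cannot be told apart from a different amount of RNA per cell.

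The same polarization was set against that of wildtype cells to ask whether the loss of Mirc11 alters it. Across the 10099 genes the M1 against M2 change in Mirc11-/- cells followed that in wildtype cells, with Pearson's r of 0.979 and Spearman's rho of 0.969 across genes, which are not independent replicates. In both genotypes with the same sign, 7424 genes passed the test, and 15 passed with opposite signs. The median absolute difference of the changes was 0.089, 86.9% of genes differed by less than 0.25, and 53 genes differed by at least 1. The test of the difference itself (interaction contrast in limma, adjusted over all genes) called 205 genes (2.03%), 103 with a more positive and 102 with a more negative change in Mirc11-/- cells, with 1440 at an unadjusted p under 0.05. The absolute change was the larger one in Mirc11-/- cells for 133 of the 205. The number of called differences, 205 with all libraries, depended on single libraries. It was 81 without Ako2272M1, 127 without Ako2271M1, 105 without Ako2271M2, 101 without Wt2260M2 and 309 without Wt2262M1.

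**Figure D5:**
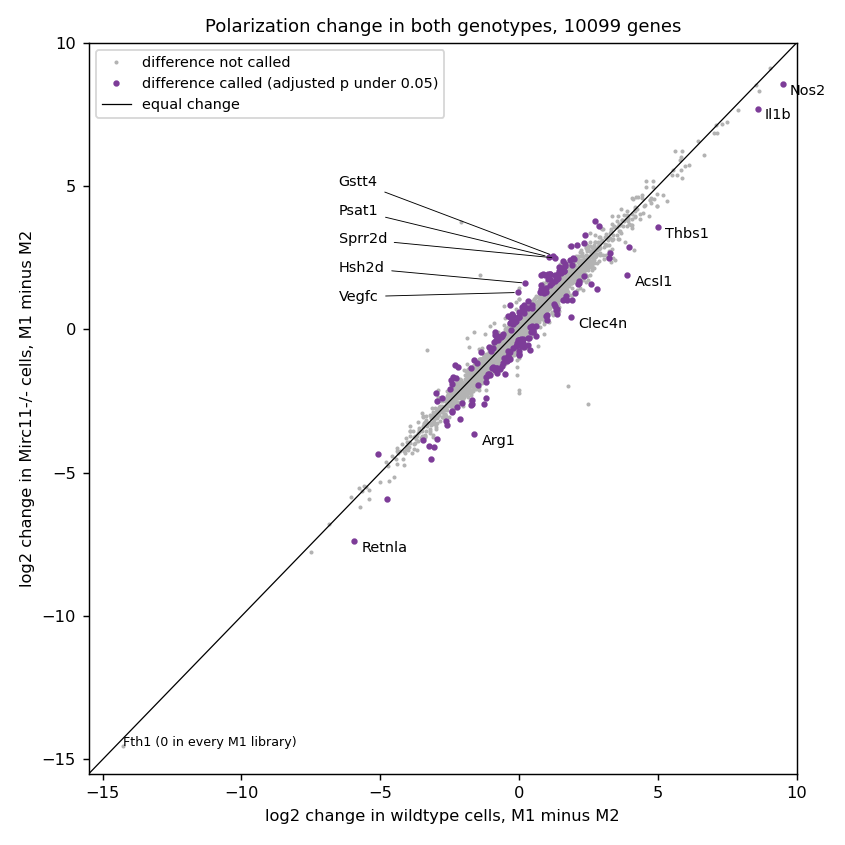
Log2 change, M1 minus M2, in Mirc11-/- cells (y axis) against that in wildtype cells (x axis), with 1 point per gene and the line of equal change. Purple points mark the 205 genes whose difference passed the test. Arg1, Acsl1 and Thbs1 lie below the line, and Psat1, Hsh2d and Vegfc above it.

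The largest negative difference was in Arg1. It reached means of 5.12 ± 0.331 FPKM in M1 and 76.4 ± 9.15 FPKM in M2 of Mirc11-/- cells, and 11.9 ± 3.82 FPKM in M1 and 37.6 ± 4.57 FPKM in M2 of wildtype cells (SD, n = 3 libraries each). The change was -3.66 in Mirc11-/- and -1.62 in wildtype cells, a difference of -2.04 ± 0.24 (SE, adjusted p = 0.0015 in limma). Acsl1 reached means of 127 ± 11.5 FPKM in M1 and 33.5 ± 1.93 FPKM in M2 of Mirc11-/- cells, and 425 ± 62.4 FPKM in M1 and 27.3 FPKM in M2 of wildtype cells. Its rise was smaller in Mirc11-/- cells, with a difference of -2.01 ± 0.14 (adjusted p = 4.1e-05). Thbs1, thrombospondin, differed by -1.42 ± 0.27 and the lectin Clec4n by -1.45 ± 0.31. Thbs1 lost its call without Ako2272M1, Ako2271M2 or Wt2260M2, with adjusted p of 0.064, 0.067 and 0.052. Clec4n kept its call only without Ako2273M1, Wt2262M1 or Wt2261M2, and its adjusted p was 0.052 to 0.11 without any of the other 9 libraries. Retnla, at 0 in M1 of both genotypes, had 171 ± 44.6 FPKM in Mirc11-/- M2 and 63.6 ± 24.2 FPKM in wildtype M2 cells, and its difference (-1.45 ± 0.34, adjusted p = 0.0498) kept its call only without Ako2273M2, Wt2260M2 or Wt2261M2 (adjusted p of 0.065 to 0.13 without any of the other 9).

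Among the M1 genes, Nos2 had means of 1019.6 ± 74.2 FPKM in M1 and 1.75 ± 0.560 FPKM in M2 of Mirc11-/- cells, against 1476 ± 135 FPKM in M1 and 1.06 ± 0.295 FPKM in M2 of wildtype cells. The difference of -0.94 ± 0.20 (adjusted p = 0.031) kept its call only without Ako2271M2, Wt2262M1 or Wt2261M2 (adjusted p of 0.057 to 0.081 without any of the other 9). Il1b reached means of 1718 ± 216 FPKM in M1 and 7.28 ± 1.17 FPKM in M2 of Mirc11-/- cells, against 1667 ± 110.0 FPKM in M1 and 3.34 ± 0.550 FPKM in M2 of wildtype cells. Its difference of -0.89 ± 0.17 (adjusted p = 0.022) came with a higher M2 level in Mirc11-/- cells and lost its call without Ako2272M1, Ako2271M2, Ako2272M2 or Wt2260M1 (adjusted p of 0.057 to 0.075). Tnf, Il6, Il12b and Il10 passed no such test, with differences of 0.38, 0.13, 0.13 and 0.26.

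Genes with a more positive change in Mirc11-/- cells were led by Psat1, an enzyme of serine synthesis. It reached means of 57.0 ± 2.75 FPKM in M1 and 9.02 ± 0.635 FPKM in M2 of Mirc11-/- cells, and 17.4 ± 1.64 FPKM in M1 and 7.90 ± 1.39 FPKM in M2 of wildtype cells, with a difference of 1.48 ± 0.14 (adjusted p = 5.1e-04). Hsh2d, an adaptor of lymphoid and myeloid cells, reached means of 3.01 ± 0.348 FPKM in Mirc11-/- M1 cells and 0.292 ± 0.0937 FPKM in wildtype M1 cells. Vegfc, a lymphatic growth factor, reached means of 6.38 ± 0.530 FPKM in M1 and 2.03 ± 0.328 FPKM in M2 of Mirc11-/- cells, and 5.99 ± 0.630 FPKM in M1 and 6.21 ± 0.650 FPKM in M2 of wildtype cells, so its change was 1.29 in Mirc11-/- and -0.05 in wildtype cells. The differences of Gstt4 and Sprr2d were 1.35 ± 0.22 and 1.19 ± 0.18, and both genes were listed at 0 in at least 1 M2 library.

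Of the 570 tested genes in the lists, 20 (3.51%) had a called difference, against 2.03% of all genes. In iron and haem handling, Hmox1 and Slc40a1 differed by -1.37 ± 0.15 and -0.73 ± 0.17, and Hmox1 reached means of 816 ± 103 FPKM in M1 and 302 ± 18.8 FPKM in M2 of Mirc11-/- cells, against 1839 ± 208 FPKM in M1 and 263 ± 18.2 FPKM in M2 of wildtype cells. In the redox list, whose members Cat and Gclc differed by -0.58 and -0.67, the median change was -0.03 in Mirc11-/- and 0.41 in wildtype cells, a difference of medians with no test of its own. Lpl differed by -1.17 ± 0.17, with 12.3 ± 2.19 FPKM in Mirc11-/- M1 cells and 39.1 ± 5.33 FPKM in wildtype M1 cells. Clec10a (-1.35) and Cish (-0.45) had a more negative change, and Icam1 (0.56), Tnip3 (0.53), Il18 (0.51), Ebi3 (0.42), Mmp14 (0.41) and Nfkb2 (0.34) a more positive one. No member of the IFN-γ, GTPase, antiviral, glycolysis, lysosome, cholesterol synthesis or MHC lists had a called difference, which does not show that these changes were equal.

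Of the 205 genes with a called difference, 24 (11.7%) lie on chromosome 8, where the deleted cluster is, against 557 of the 10057 tested genes with a known chromosome (5.54%). Hsh2d, Vegfc, Acsl1 and Lpl are among the 24. Whether position on the chromosome bears on these differences was not tested.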

How the data were processed

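RNA came from cultured macrophages and was sequenced after NEBNext Ultra II library preparation. Per the labels, the submitters' processing notes name STAR 2.5.1, Cufflinks, DESeq and the mm9 build. The deposited table holds FPKM per gene and library, so fragments were already divided by transcript length and library total by the authors. Further tables hold the authors' own comparisons and were not used. Groups follow the titles.

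FPKM were taken as log2(FPKM + 1) for genes that averaged 1 FPKM or more in the 6 Mirc11-/- libraries. Group means of all 12 libraries were fitted in limma 3.58.1 (R 4.3.3; empirical Bayes with trend), and the script was tested on simulated data. Python 3.11.15, pandas 2.3.3 and matplotlib 3.10.9 served for the rest. Because FPKM are not counts, no count model was run. A gene listed at 0 can be a failed estimate.

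Named genes were the 10 largest rises and falls (called, no overlap, above 0 in all 6 libraries), up to 4 members of each list by p and 3 against its direction, 19 fixed genes, 5 differences per direction, genes listed at 0 in 1 polarization, and the 10 most abundant per polarization. List members named beyond these were chosen after their values were seen. Members and lists were chosen with earlier results of these data known. The microRNA and promoter sequences come from RefSeq. Alternatives were other pseudocounts (0.1 and 5), filters, scalings, no trend, a replicate block, other groupings of the labels, and leaving out each library. Some genes are not reported here.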

Additional observations from a re-analysis of the deposited data

Results flagged for a closer look

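The M1 against M2 change differed between Mirc11-/- and wildtype cells by the limma interaction test for the 10 genes named for their size. The differences, Mirc11-/- minus wildtype, were -2.04 for Arg1, -2.01 for Acsl1, -1.45 for Retnla, -1.45 for Clec4n and -1.42 for Thbs1 on the negative side. On the positive side they were 1.48 for Psat1, 1.39 for Hsh2d, 1.35 for Gstt4, 1.33 for Vegfc and 1.19 for Sprr2d. With 3 libraries in each group, no single library was tested as an outlier.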

How the results depend on the processing

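The 8092 calls between M1 and M2 in Mirc11-/- cells were stable in number, at 7714 to 8099 when 1 library was left out (2483 to 2647 higher, 5208 to 5459 lower). The replicate block (the number in the title as a term) gave 7961 such calls and 194 calls for the difference between genotypes, 144 of them among the 205. Same-numbered libraries did not deviate together over all genes in Mirc11-/- cells (r = 0.058, -0.181 and -0.291), nor in all wildtype pairs (-0.179, 0.259 and 0.157). The main fit did not treat the numbers as pairs, but such r cannot show that libraries share no source. Of the fibroblast markers, all under 1 FPKM, Col1a1, Col1a2, Col3a1 and Pdgfra were highest in Ako2273 within both polarizations, while Dcn and Lum were not. Whether same-numbered libraries share a mouse or culture was not tested. Groups from the treatment field gave 0 calls, 0 higher and 0 lower, and B2m stood at -0.018. With the median of ratios 4078 genes were higher and 3812 lower, with 6450 of the 8092 calls kept in the same direction and 69 reversed, and Irf5 stood at 0.035. With quantile normalization 3818 were higher and 4092 lower. The 205 calls for the difference ranged over 81 to 309 when 1 library was left out (43 to 143 positive, 38 to 166 negative), and were 127 (63 positive, 64 negative) with a mean of at least 5 FPKM, and 159 (63 positive) with only the libraries whose labels agree, which shared 74 of the 205. Of the 10 largest differences, Thbs1, Retnla and Clec4n lost their call with no filter on low values (adjusted p = 0.056, 0.11 and 0.091), as did Nos2 and Il1b (0.077 and 0.056). Gstt4 and Sprr2d lost their call with a pseudocount of 0.1 (adjusted p = 0.092 and 0.073), as did Retnla (0.059) and Nos2 (0.070), Thbs1 with a pseudocount of 5 (0.063) and Retnla with a mean of at least 5 FPKM (0.053), while Psat1, Hsh2d, Vegfc, Arg1 and Acsl1 kept theirs wherever they were tested. Read depth is unknown, so no limit could be set from it. The causes of these shifts were not tested.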
